A study of Mus musculus with 2 samples.

Results

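Circadian clock genes were read in mouse embryonic fibroblasts before and 1 h after serum, in cells with THOC5 and in cells depleted of it. The genes are Per1, Per2, Per3, Cry1, Cry2, Bhlhe40, Nr1d1, Nr1d2, Dbp and Ccrn4l, which were taken by their symbol on the array. These 10 genes were read by 12 probes, among 28233 genes with a symbol read by 35774 probes. Ccrn4l is named Noct in the current RefSeq annotation.

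The cells were an immortalized fibroblast line of the background C57BL/6 x B6:129 Ola. All cells carried Rosa26ERT2 Cre, a recombinase active only in the presence of tamoxifen, and THOC5 (flox/flox). Control cells (labelled wildtype) received no tamoxifen, and THOC5-depleted cells (labelled THOC5 knockdown) were pretreated for 2 days. Per the methods, tamoxifen was used at 10 μM for 24 h, growth medium followed for 24 h, and all cells were starved of serum for 24 h before 20% serum was added. Each condition was 1 dual-color array, on which Cy3 carried RNA of unstimulated cells and Cy5 RNA of cells after 1 h of serum, so that any dye effect left after normalization runs the same way on both arrays. With 1 array per condition no test between conditions was possible and no p-value is given. Tamoxifen, the recombinase, the culture and THOC5 all differ between the conditions in the same way, and their parts cannot be told apart. In bulk RNA, fewer cells of a type and less RNA per cell cannot be told apart either.

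The clock is a feedback loop of transcription. CLOCK and BMAL1 (the product of Arntl) bind E-boxes and switch on the Per and Cry genes, whose proteins then inhibit them. REV-ERBα and REV-ERBβ, the products of Nr1d1 and Nr1d2, repress Arntl and so form another loop. A brief exposure of quiescent fibroblasts to high serum is a classical way to start synchronous circadian cycles in culture, and Per1 and Per2 are known as clock genes that respond to such signals within the first hour.

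Sequences upstream of the members' starts are shown because such elements connect the loop and its serum input. They are from RefSeq (GRCm38.p6), which gave 9 start sites for 8 of the 10 genes in the table used. Bhlhe40 and Per2 were not among them. The 250 bases before each start were searched on both strands for the E-box CACGTG, its variant CACGTT, the D-box TTATGTAA, the CRE TGACGTCA, the CRE core TGACG, which lies within the full CRE, and the RORE core AGGTCA. Capitals mark the match.
Per1, first start, chr11:69098766-69098805, plus strand: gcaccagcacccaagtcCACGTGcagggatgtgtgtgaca
Per1, second start, chr11:69100003-69100041, plus strand: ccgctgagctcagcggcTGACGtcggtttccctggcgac
Cry1, chr10:85185092-85185131, minus strand: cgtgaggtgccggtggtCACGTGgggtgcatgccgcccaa
Nr1d1, chr11:98775383-98775422, minus strand: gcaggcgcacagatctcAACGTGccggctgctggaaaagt
Per3, chr4:151044846-151044887, minus strand: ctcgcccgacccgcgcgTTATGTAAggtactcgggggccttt
Per3, chr4:151044799-151044840, minus strand: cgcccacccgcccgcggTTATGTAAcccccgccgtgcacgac

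The E-box was matched upstream of Per1 and Cry1, and it was present before 6.02% of all 32851 starts. Its variant was matched upstream of Cry1, Cry2 and Nr1d1, and before 3.85% of all starts. Both D-boxes lay upstream of Per3, and 0.819% of all starts had one. The CRE core was matched upstream of Per1, Cry1 and Cry2 (17.8% of all starts), and the RORE core upstream of Per1 and Nr1d2 (14.0% of all starts). The full CRE was matched before none of the 9 starts and before 1.55% of all starts. None of the motifs searched was matched in the 250 bases upstream of Ccrn4l or Dbp. Sequence farther upstream or within the genes was not searched, so a gene without a match here may hold the motif elsewhere. A match is a run of letters, and binding was not measured.

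The probes were 60 bases long and are placed on mm9. The first 30 bases are given for the 4 genes with the largest serum ratios in control cells, 5′ to 3′ with no part marked, to show what was hybridized.
Bhlhe40, probe at chr6:108616309-108616368, plus strand: agcagcggatggagcgtccttgctaaaaag
Ccrn4l, probe at chr3:51055429-51055488, plus strand: ctctttcaattgttgaagcctcttccaaac
Nr1d1, probe at chr11:98630526-98631028, minus strand: ggcacctttgaggtgctgatggtgcgcttt
Per1, probe at chr11:68923364-68923423, plus strand: gtgttctcagctctaccctctaccaatgac

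The Nr1d1 probe is placed over 503 bases, longer than its sequence, so it joins separate stretches of the genome. The other members' probes are placed over 60 bases each. They lie on chromosome 1 from 93313046 to 93313105 for Per2, on chromosome 4 from 150379256 to 150379315 for Per3, on chromosome 10 from 84594731 to 84594790 for Cry1 and on chromosome 14 from 19037253 to 19037312 for Nr1d2. The pair of Cry2 probes lies on chromosome 2, from 92243807 to 92243866 and from 92251417 to 92251476, and the pair of Dbp probes on chromosome 7, from 52965322 to 52965381 and from 52965461 to 52965520. An mm9 gene annotation was not used here, so exons and untranslated regions are not given.

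Values are processed signals, which are intensities in the software's units, and the serum ratio is the Cy5 over the Cy3 signal of one array. Signals of different probes are not compared, since probes bind with different strength. All member probes were printed as 1 spot. The error given after ± is the scanner software's own estimate for the log2 ratio, which covers technical error on one array. On the control and the THOC5-depleted array, 64.4% and 63.1% of spots were well above background in Cy3, and the median SD of the log2 ratio between repeated spots of one probe was 0.029 and 0.031. It was 0.108 and 0.104 for repeated probes with a Cy3 signal under 200, the range of Per2, Cry1 and Nr1d1. Thoc5 was read at 4808 in unstimulated control cells and 546 in unstimulated THOC5-depleted cells, 7.08-fold lower after normalization between the arrays. The fibroblast markers Col1a1, Col1a2, Col3a1, Pdgfrb, Vim, Thy1, Fn1 and Dcn were well above background in both conditions, 8 of 8, although Col3a1 and Dcn were 2.19-fold and 1.96-fold lower in unstimulated THOC5-depleted cells. Of 3 leukocyte markers Ptprc and Cd68 were below background on the control array, and Cd14, which fibroblasts also express, was read at 584 in Cy3. On the THOC5-depleted array Ptprc, Cd68 and Cd14 were at 14.4, 24.6 and 418. Of 3 epithelial markers Cdh1 was below background on both arrays, Krt8 was at 97.6 and 88.9 in Cy3, and Epcam was at 32.1 on the control array and below background on the other. Of 3 endothelial markers Tie1 was below background on both arrays, Pecam1 was at 65.9 and 60.2 and Cdh5 at 42.7 and 21.7. The part of other cells in the results was not tested.

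In control cells the signal at least doubled with serum for 4 clock genes, in order Bhlhe40, Ccrn4l, Nr1d1 and Per1. These were 4 of the 9 members above background in at least 1 channel, against 2.89% of all 18770 genes so measured. The members were chosen with earlier results of these data known, so the shares here and below only describe them. No member had a ratio of 0.5 or less, against 2.29% of all genes. The median ratio of the 9 members was 1.67, and that of all genes was 0.981.

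In THOC5-depleted cells Bhlhe40 and Ccrn4l were the 2 clock genes at this level, against 1.22% of 18531 genes. Again no member was at 0.5 or less, against 0.626% of genes. The median ratio of the members was 1.24, and that of all genes was 0.990.

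**Figure D1:**
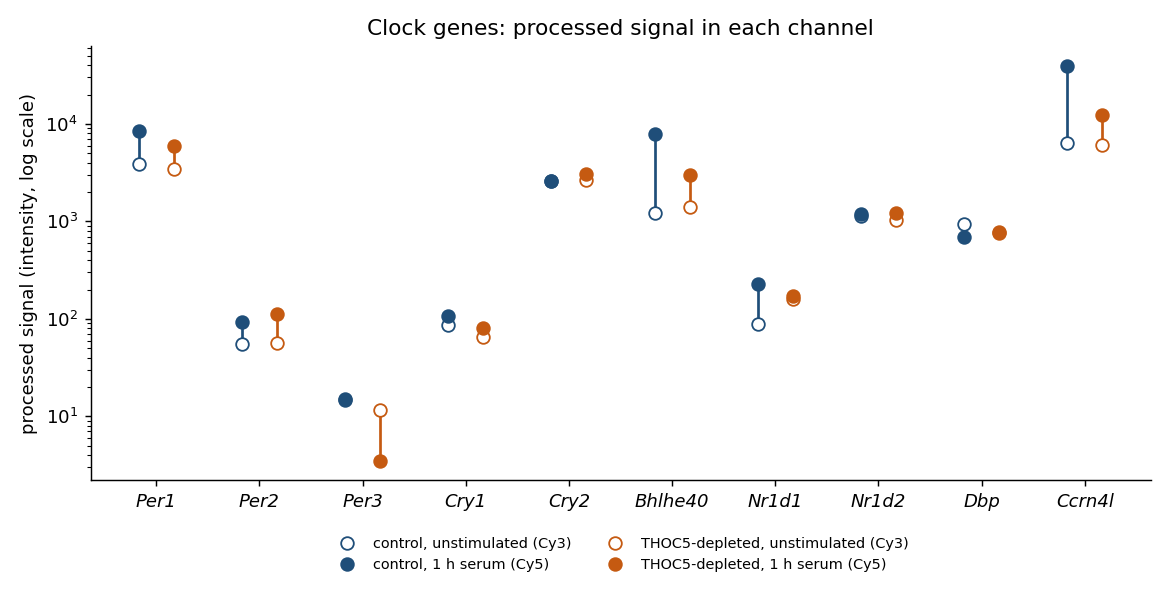
Processed signal (log scale) of each clock gene in the 4 channels, with open circles for unstimulated cells (Cy3), filled circles for cells after 1 h of serum (Cy5), and a line joining the channels of one array. The lines of Bhlhe40 and Ccrn4l are longer in control cells, from 1218 to 7880 and from 6403 to 39578, than in THOC5-depleted cells; Per3 was below background in all channels, and heights of different genes are not comparable.

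Among the repressors, Bhlhe40 had the largest ratio of all members. It encodes DEC1, a basic helix-loop-helix protein that binds E-boxes and opposes CLOCK and BMAL1. Its signal was 1218 in unstimulated and 7880 in serum-treated control cells, and 1413 and 3027 in THOC5-depleted cells. The serum ratio in control cells was 6.47 (log2 2.69 ± 0.32) and 2.14 in THOC5-depleted cells (log2 1.10 ± 0.23). The serum-treated signal was lower in THOC5-depleted cells, and the unstimulated signal was not. By serum ratio Bhlhe40 ranked 75 of 18770 genes in control cells and 182 of 18531 in THOC5-depleted cells.

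Ccrn4l had nearly the same pair of ratios. It encodes nocturnin, an enzyme of the family of CCR4 deadenylases whose mRNA is rhythmic in many tissues and is known to be an immediate early transcript. Its signal was 6403 and 39578 in control cells before and after serum, and 6090 and 12469 in THOC5-depleted cells. The ratio in control cells was 6.18 (log2 2.63 ± 0.32) and 2.05 in THOC5-depleted cells (log2 1.03 ± 0.22). As for Bhlhe40, the serum-treated signal differed more between the conditions than the unstimulated one. It ranked 79 in control and 211 in THOC5-depleted cells.

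Nr1d1 and Nr1d2, the pair of REV-ERB repressors, had unlike ratios in control cells. For Nr1d1 the signal was 88.1 and 231 before and after serum in control cells, and 159 and 171 in THOC5-depleted cells. Its ratio was 2.62 (log2 1.39 ± 0.24) in control cells and 1.07 (log2 0.10 ± 0.21) in THOC5-depleted cells, the only one of the 4 genes at 2 or more in control cells whose ratio in THOC5-depleted cells lay within the software's error of 1. The unstimulated signal was the higher one in THOC5-depleted cells, unlike the serum-treated signal. For Nr1d2 the signal was 1123 and 1185 in control cells and 1027 and 1223 in THOC5-depleted cells, with ratios of 1.06 and 1.19. All 4 signals of Nr1d2 were close to each other.

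Of the Period genes, which encode the inhibitors whose accumulation times the loop, Per1 and Per2 had higher signals after serum on both arrays. Per1 was read at 3914 and 8440 in control cells before and after serum, and at 3431 and 5963 in THOC5-depleted cells. Its ratio was 2.16 (log2 1.11 ± 0.23) and 1.74 (log2 0.80 ± 0.22). The difference between these ratios was no larger than the software's error. Per2 was read at 55.4 and 92.2 in control cells and at 56.0 and 111.6 in THOC5-depleted cells. Its ratio was 1.67 (log2 0.74 ± 0.23) in control and 1.99 (log2 1.00 ± 0.23) in THOC5-depleted cells, just under the threshold there.

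Per2 was thus the member with the third largest ratio in THOC5-depleted cells, where it ranked 232 of 18531 genes, against 910 in control cells. Its signals were dim, and with normexp background correction the log2 ratios were 0.44 and 0.64, the latter below that of Per1 (0.80). Per3, a paralog that is dispensable for rhythms, was below background in all 4 channels, with signals of 15.1 and 14.9 in control cells and 11.7 and 3.51 in THOC5-depleted cells. No ratio is given for it, and it is left out of the counts.

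The cryptochromes, partners of the PER proteins and the strongest inhibitors of CLOCK and BMAL1, had ratios below 2 and above 0.5 on both arrays. Cry1 was read at 87.0 and 107.3 in control cells and at 65.3 and 81.1 in THOC5-depleted cells. Its ratios were 1.23 (log2 0.30 ± 0.21) and 1.24 (log2 0.31 ± 0.22), and both log2 values lay beyond the software's error of 0. The brighter Cry2 probe was read at 2567 and 2611 in control cells and at 2679 and 3070 in THOC5-depleted cells, with ratios of 1.02 and 1.15. The other Cry2 probe, for transcript variant 2, was read at 81.4 and 74.2 in control cells and at 99.5 and 69.0 in THOC5-depleted cells. Its ratios were 0.912 (log2 -0.13 ± 0.22) and 0.694 (log2 -0.53 ± 0.22), and the latter lay beyond the software's error of 0.

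Dbp encodes a PAR bZIP factor that binds D-boxes and is a direct output of CLOCK and BMAL1. By the brightest probe of each gene it was the member with the lowest ratio on both arrays. Its brighter probe was read at 931 and 692 in control cells and at 783 and 754 in THOC5-depleted cells, with ratios of 0.743 (log2 -0.43 ± 0.21) and 0.963 (log2 -0.05 ± 0.20). The dimmer probe was read at 556 and 395 in control cells and at 466 and 468 in THOC5-depleted cells, with ratios of 0.709 and 1.01. Both probes gave the lower ratio in control cells.

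**Figure D2:**
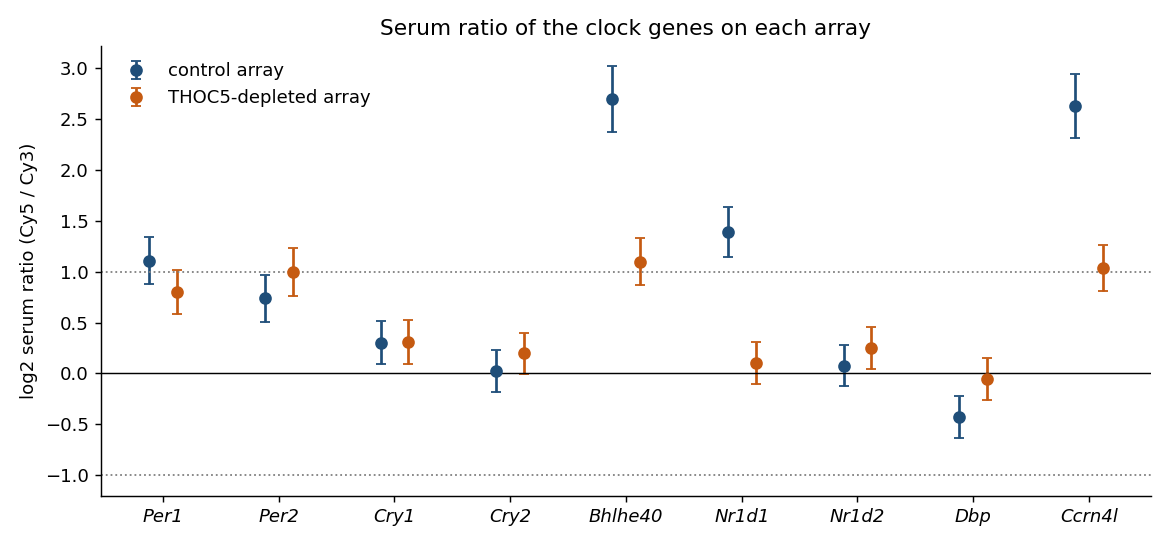
Log2 serum ratio (Cy5/Cy3) of 9 clock genes on the control and the THOC5-depleted array; bars are the scanner software's error for one array, dotted lines mark a ratio of 2 and of 0.5, and Per3 is not drawn. Bhlhe40, Ccrn4l and Nr1d1 are separated between the arrays by more than their bars, while the bars of the other 6 genes overlap.

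To compare the responses, the control serum ratio was divided by that of THOC5-depleted cells, here called the fold reduction. It was 3.02 for Bhlhe40 (log2 1.59 ± 0.39), 3.02 for Ccrn4l (log2 1.59 ± 0.39) and 2.44 for Nr1d1 (log2 1.28 ± 0.32). For these 3 genes the difference was about 4 times the software's error, which does not include the variation between cultures. They ranked 71, 72 and 133 of 18005 genes measured on both arrays.

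The fold reduction was 1.24 for Per1 (log2 0.31 ± 0.31), 0.993 for Cry1, 0.887 for Cry2, 0.886 for Nr1d2, 0.836 for Per2 (log2 -0.26 ± 0.33) and 0.772 for Dbp (log2 -0.37 ± 0.29). Thus 3 of 9 members had a fold reduction of 1.3 or more, against 8.97% of all genes. None had an increase of the ratio of 1.3-fold or more, against 11.4% of all genes, but Dbp lay just short of it, and the dimmer Dbp probe was at 1.42-fold. The dimmer Cry2 probe went the other way, with a fold reduction of 1.32 (log2 0.40 ± 0.31). Over the 9 members the median was 0.993, as for all genes (0.994).

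Among genes chosen for a ratio of 2 or more in control cells, a fold reduction of 1.3 or more was the rule. It was found for 83.9% of the 502 such genes measured on both arrays and for 3 of the 4 such members, a share near the background. Of the genes measured on both arrays, 201 at least doubled on the THOC5-depleted one. Of these, 101 had a fold reduction of 1.3 or more and 42 had the inverse. The 101 included both members at this level, Bhlhe40 and Ccrn4l. When the log ratios of both arrays were scaled to one spread, the log2 fold reduction was 0.96 for Bhlhe40, 0.99 for Ccrn4l, 1.05 for Nr1d1 and -0.01 for Per1. This scaling put Per1 under a ratio of 2 in control cells (log2 0.93) and Per2 above it in THOC5-depleted cells (log2 1.18). Centring each array on its median also put Per2 above it there (log2 1.01), with 3 members in place of 2.

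**Figure D3:**
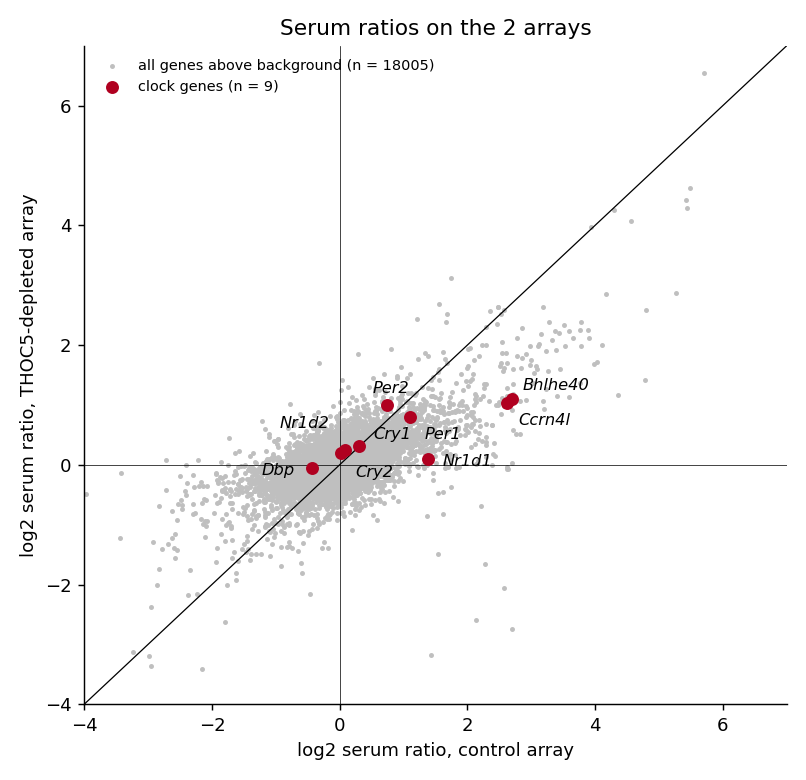
Log2 serum ratio on the THOC5-depleted array against that on the control array, for genes above background on both arrays (grey, with 2 of 18005 genes outside the axes) and for 9 clock genes (red); the diagonal marks equal ratios. Bhlhe40, Ccrn4l and Nr1d1 lie farthest below the diagonal, by 1.59, 1.59 and 1.28, and Dbp lies farthest above it, by 0.37.

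Whether a smaller ratio came with a lower serum-treated signal or a higher unstimulated signal was read after the mean signals of the arrays had been quantile normalized. Such differences between arrays are less precise than ratios within one. In unstimulated cells, 1 of 9 members differed 2-fold or more, against 6.33% of 19044 genes. This was Nr1d1, which was 2.08-fold higher in THOC5-depleted cells (log2 1.06). Without scaling between the arrays this difference was 0.85 on the log2 scale, under 2-fold, and with the 75th percentile as the scale it was 1.15.

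In serum-treated cells 2 of 9 members differed 2-fold or more, against 6.67% of 18664 genes. Ccrn4l was 2.55-fold and Bhlhe40 2.08-fold lower in THOC5-depleted cells. Their unstimulated signals were 1.18-fold and 1.45-fold higher there, that of Ccrn4l only with scaling between the arrays. The serum-treated signal of Nr1d1 was 1.17-fold lower in THOC5-depleted cells. The smaller ratio of Nr1d1 therefore lay mostly in its unstimulated signal, and those of Ccrn4l and Bhlhe40 mostly in their serum-treated signal.

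For Per1 the normalized signal in THOC5-depleted cells was 1.11-fold higher in unstimulated and 1.12-fold lower in serum-treated cells. Per2 was 1.15-fold and 1.37-fold higher, and Cry2 1.31-fold and 1.48-fold higher. Cry1 was 1.18-fold and 1.17-fold lower. Nr1d2 was 1.13-fold and 1.27-fold higher, and Dbp 1.01-fold and 1.31-fold higher. In unstimulated cells 8 of 9 members, Cry1 being the other, had the higher value in THOC5-depleted cells, against 9412 of 19044 genes, with a median log2 difference of 0.20 against a median near 0 for all genes. This count rests on the signals being scaled. With the 75th percentile as the scale 8 of 9 members were again higher, against 10699 of 19044 genes. With signals as deposited, 4 of 9 members were higher, against 3878 of 19044 genes, and Per1, Nr1d2, Dbp and Ccrn4l were then on the lower side, while the median of all genes stood at -0.26. With serum the same 4 of 9 members (Per2, Cry2, Nr1d2 and Dbp) were higher under all 3 scalings, against 50.5%, 53.3% and 22.5% of 18664 genes with quantiles, the 75th percentile and no scaling.

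**Figure D4:**
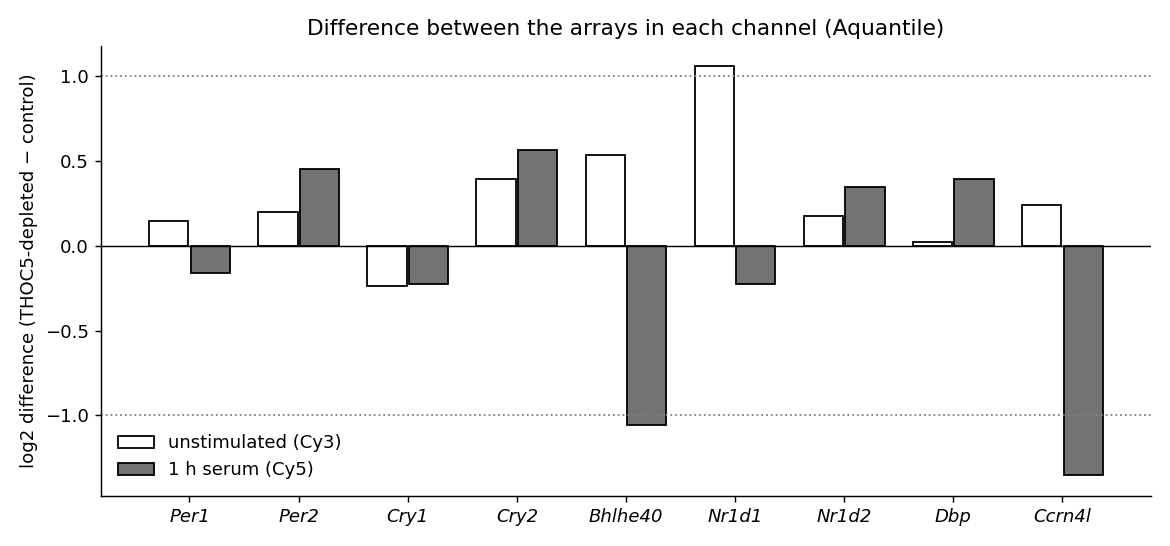
Log2 difference between THOC5-depleted and control cells in unstimulated cells (white) and after 1 h of serum (grey) for 9 clock genes, after quantile normalization between the arrays; there is 1 array per condition, so no error is drawn, and dotted lines mark 2-fold. Nr1d1 stands out in the white bars (1.06), and Bhlhe40 (-1.06) and Ccrn4l (-1.35) in the grey bars.

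For each member with a ratio of 2 or more in control cells, the nearest genes in the plane of both log2 serum ratios were sought among 17200 genes above background in all 4 channels. Bhlhe40 and Ccrn4l were among each other's 3 nearest genes, at a distance of 0.09. The others nearest to Bhlhe40 were Dlx2 and Snai1, transcription factors of development, at 0.07 and 0.08. Those nearest to Ccrn4l were Bdkrb1, a bradykinin receptor, at 0.07, and Snai1 at 0.11. For Nr1d1 they were Sema7a, Irf5 and LOC635676, at 0.01, 0.02 and 0.07, and for Per1 they were Cidea, Ankrd7 and Gm2262, at 0.02, 0.06 and 0.07. Likeness here rests on 2 values per gene.

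The rest of the pathway was read from lists of 23 further clock genes and CREB pathway genes, of which 22 were above background. Of these, 1 at least doubled in control cells, and 0 did so on the THOC5-depleted array, counts that are not apart from the 2.89% and 1.22% of all genes. It was Nfil3, a repressor that competes with DBP for D-boxes. Its signal was 3368 and 10353 in control cells before and after serum and 2811 and 5269 in THOC5-depleted cells. The ratio was 3.07 and 1.87, and the fold reduction was 1.64.

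The activators had ratios below 2. Arntl was read at 1175 and 1777 in control cells and at 1257 and 1316 in THOC5-depleted cells, with ratios of 1.51 and 1.05. Clock had ratios of 1.35 and 1.05, and Arntl2, a paralog of Arntl, had 0.734 and 0.887, with another probe at 1.18 in control cells. Npas2, a paralog of Clock, was below background. Arntl is the gene that the REV-ERB proteins repress, and its ratios are the values that stand beside those of Nr1d1.

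Rora and Rorb encode nuclear receptors that compete with the REV-ERB proteins. Rora had ratios of 0.938 and 1.33, and Rorb 1.29 and 1.14 (another probe 0.938 in control cells). Bhlhe41, the paralog of Bhlhe40, had ratios of 0.874 and 0.880, and Gm129, now named Ciart, had 0.965 and 1.35. Neither of these E-box repressors shared the ratio of Bhlhe40. The signals of Bhlhe41 were dim, at 30.9 and 27.0 in control cells and at 40.4 and 35.5 in THOC5-depleted cells, which limits its ratios. The PAR bZIP genes Tef and Hlf, which are related to Dbp, had ratios of 0.790 and 1.02 and of 0.805 and 0.708.

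The 6 genes for kinases, ubiquitin ligase subunits and a partner of the PER proteins (Csnk1d, Csnk1e, Fbxl21, Btrc, Fbxw11, Timeless) all had ratios below 2 and above 0.5 on both arrays. The CREB pathway genes Creb1, Crem, Crtc1, Crtc2, Crtc3 and Sik1 were likewise between these limits, although the probes of Creb1 ranged from 0.648 to 1.53 in control cells. The highest of them was Sik1, a kinase that limits the response of Per1 to CREB signalling, whose log2 ratio was 0.88 in control cells and, at 0.58, lower in THOC5-depleted cells. CREB is known to act by phosphorylation, which an array does not measure.

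The serum anchors Fos, Egr1, Ier2 and Dusp1 had ratios of 2 or more on both arrays, and their fold reductions were 0.559, 0.980, 0.894 and 0.558. These anchors were chosen with such values known, so they are no standard for the clock genes. Of 5 genes known as targets of the glucocorticoid receptor, which also acts on Per1, Klf9 had ratios of 4.05 and 1.46 and Sgk1 had ratios of 4.56 and 3.55. Fkbp5, Tsc22d3 and Zbtb16 had ratios of 0.847, 0.660 and 0.922 in control cells, so the list did not move together.

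**Figure D5:**
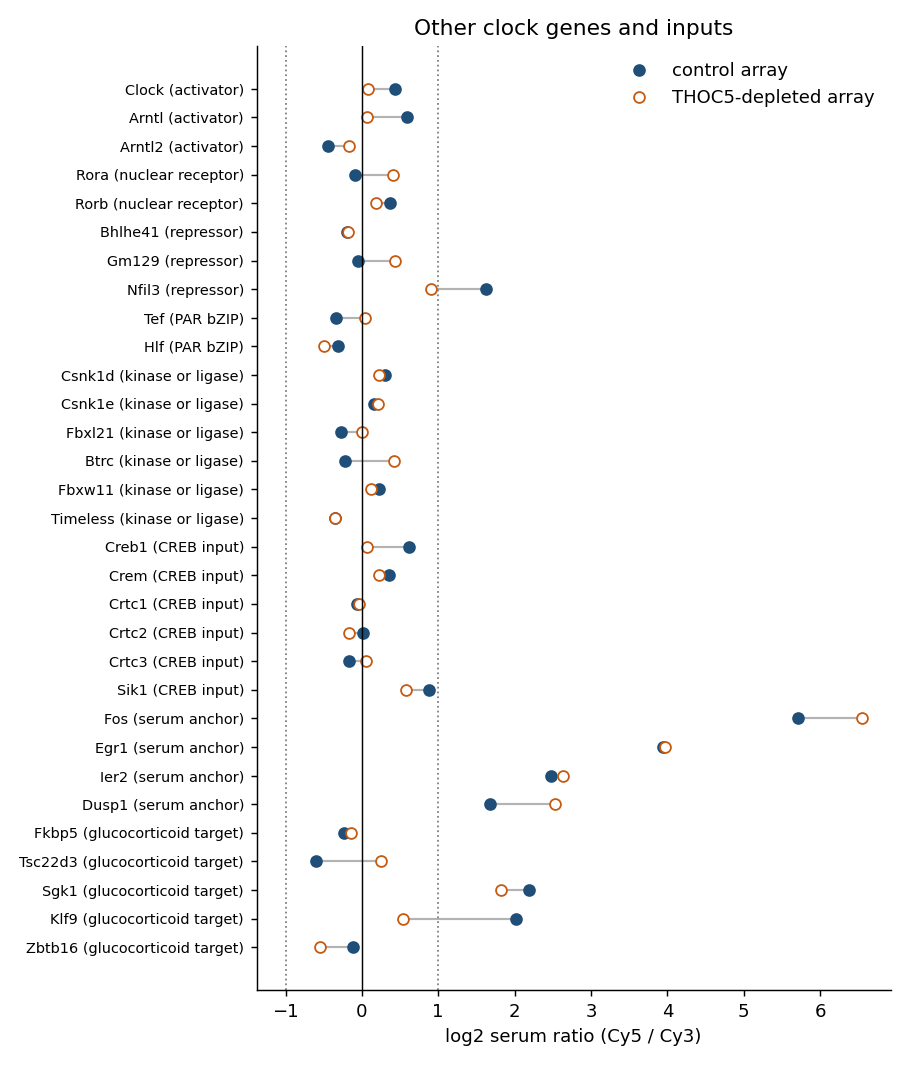
Log2 serum ratio of 31 other clock genes and inputs above background, by list, on the control array (filled) and the THOC5-depleted array (open); dotted lines mark a ratio of 2 and of 0.5. Outside the serum anchors, Nfil3, Sgk1 and Klf9 pass the upper line in control cells.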

How the data were processed

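RNA of control and THOC5-depleted fibroblasts was measured on 2 dual-color Agilent arrays, 1 per condition. The authors deposited the scanner output (Agilent Feature Extraction 10.7.3.1 per the submitters' processing notes; probe positions on mm9), in which the authors' software had subtracted the background from each intensity and normalized the dyes within the array (linear and LOWESS). The log ratio that the authors deposited there is the log10 of Cy5 over Cy3. Their table for the whole series holds its size without the sign: for spots with both signals above 100 it equalled it within 1e-06 in 100% of cases, and 0 values were negative.

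Outlier spots were left out (239 and 234, none of a member), spots of a probe were averaged on the log2 scale, and the brightest probe stood for a gene. Values below background in both channels of an array were not counted. Members, lists and named genes (members, Thoc5, listed genes and the 3 nearest genes of each member at a ratio of 2 or more) were chosen with earlier results of these data known, and some listed genes are not reported here. Signals between arrays were normalized with limma 3.58.1 (Aquantile), in R 4.3.3. Python 3.11.15, numpy 2.4.6, pandas 2.3.3 and matplotlib 3.10.9 were used. The calculation was tested on simulated data. Alternatives are described in the closing section. The number of arrays limits the precision.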

Additional observations from a re-analysis of the deposited data

Results flagged for a closer look

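The dimmer Dbp probe read -0.50 in control cells (log2 serum ratio), and 0.01 after THOC5 depletion. The signs are opposite, and the difference of 0.50 was larger than its software error of 0.29. The value in THOC5-depleted cells was within the software's error of 0, the brighter probe was below 0 on both arrays, and the difference was not tested.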

How the results depend on the processing

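Each array stood alone, so no array could be left out, and no paired analysis was possible because each condition has 1 array. Values of single members moved by more than the median software error (0.22 for a log2 ratio, 0.32 for a log2 fold reduction) for 12 of 18 between the arrays without scaling, for 5 of 27 with one spread, for 3 of 27 with normexp and for 2 each with the dimmest and the mean probe. A floor, the outlier spots and the authors' table could not move a member and moved none, and 0 values at or beyond their threshold changed sign. With a threshold of 4, the control array counted 2 members (167 of 18770 genes) and the THOC5-depleted array 0 (48 of 18531 genes), and with 1.5 there were 5 (1296 genes) and 4 (711 genes). Centring on the median or scaling to one spread gave 3 members at 2 or more on the THOC5-depleted array. With normexp and loess the median log2 ratio of the members in control cells was 0.44, that of Per2. With the dimmest probe of each gene the median log2 fold reduction was 0.31. Without scaling between arrays 0 members differed 2-fold in unstimulated cells. The count of 3 members reduced at least 1.3-fold was kept under the other normalizations and scalings. Bhlhe40, Ccrn4l and Nr1d1 have 1 probe each, so the probe rules could not remove them. The mean probe gave 3 and the dimmest probe 4. Dim signals limit the ratios of Per2, Cry1 and Nr1d1.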
